A study of Mus musculus with 36 samples.

Results

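The claudins examined here are Cldn1, Cldn2, Cldn3, Cldn4, Cldn5, Cldn7, Cldn8 and Cldn15, membrane proteins of the tight junction. Every probe set annotated to these 8 gene symbols on the 3 array sets was taken. This gave 15 of the 36701 probe sets tested, and 8 of the 15964 genes represented. Of the 15, 9 lay on array set A, 3 on set B and 3 on set C. Cldn7 and Cldn8 each had 3 probe sets, Cldn1, Cldn3 and Cldn15 had 2 each, and Cldn2, Cldn4 and Cldn5 had 1 each.

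The study profiled gene expression along the mouse intestine in 4 segments: a short proximal piece next to the stomach (duodenum), the middle of the small intestine (jejunum), its last stretch before the caecum (ileum) and the undivided colon. All mice were untreated male Hsd:ICR(CD-1) animals, an outbred strain, aged 8 weeks and kept on standard chow. Total RNA of the whole segment wall was pooled from 10 mice, with 3 pools a segment, and each of the 12 pools was hybridised to Affymetrix array sets A, B and C (36 arrays). The labels do not say whether equal pool numbers in different segments mark the same mice, so p-values measure the spread between pools of many animals.

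Claudins span the membrane and bind claudins of the neighbouring cell, closing the gap between epithelial cells. Some, such as claudin-2 and claudin-15, form channels that let small cations, and for claudin-2 also water, pass between the cells. Others, such as claudin-3, claudin-4, claudin-5 and claudin-8, are mainly known to tighten the seal, and claudin-5 is the typical claudin of blood vessel walls. In the intestine, sodium returning to the lumen through claudin-2 and claudin-15 is known to feed sodium-coupled glucose uptake in mice.

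Upstream regions are shown for Cldn15, Cldn4, Cldn3 and Cldn2, which had differences called between segments. Cldn7 also had such calls, but its 2 entries are not shown. Each line holds the 250 bases before the RefSeq gene start on GRCm38.p6, 5′ to 3′ on the gene's own strand. 7 of the 8 claudins had an entry, and Cldn8 is named only. Capitals mark matches, on either strand, to a TATA-box motif with the letters TATAAA, a motif of CDX factors with the letters TTTATG, a motif of zinc finger factors of the GATA family with the letters AGATAA, an SP and KLF motif with the letters GGGCGG, an HNF4 core with the letters CAAAGTCCA or an AP1 motif with the letters TGACTCA. No marked match overlaps another motif. The windows lie at chr5:136967619-136967868 on the plus strand for Cldn15, chr5:134946935-134947184 on the minus strand for Cldn4, chr5:134985964-134986213 on the plus strand for Cldn3 and chrX:139800558-139800807 on the plus strand for Cldn2.
Cldn15: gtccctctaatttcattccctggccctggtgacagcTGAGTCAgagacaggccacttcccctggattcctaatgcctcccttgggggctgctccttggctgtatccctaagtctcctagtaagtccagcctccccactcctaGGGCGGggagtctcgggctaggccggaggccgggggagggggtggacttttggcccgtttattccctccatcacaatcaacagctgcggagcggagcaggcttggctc
Cldn4: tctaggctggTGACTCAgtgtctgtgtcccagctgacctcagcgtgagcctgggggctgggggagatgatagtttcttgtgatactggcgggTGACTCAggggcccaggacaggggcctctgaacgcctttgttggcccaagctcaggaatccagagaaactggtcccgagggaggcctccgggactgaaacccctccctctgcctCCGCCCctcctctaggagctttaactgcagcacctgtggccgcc
Cldn3: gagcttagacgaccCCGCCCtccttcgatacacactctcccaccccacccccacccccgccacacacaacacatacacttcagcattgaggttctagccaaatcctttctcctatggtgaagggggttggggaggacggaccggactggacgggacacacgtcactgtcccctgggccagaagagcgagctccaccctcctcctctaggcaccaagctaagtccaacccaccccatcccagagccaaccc
Cldn2: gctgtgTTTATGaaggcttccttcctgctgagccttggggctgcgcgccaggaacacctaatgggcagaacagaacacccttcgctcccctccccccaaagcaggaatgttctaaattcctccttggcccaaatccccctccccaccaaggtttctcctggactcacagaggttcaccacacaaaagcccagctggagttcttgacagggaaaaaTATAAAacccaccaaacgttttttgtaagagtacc

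Cldn2 carried TATAAA at -35 to -30 from its start and TTTATG at -244 to -239. These motifs occurred in 12.4% and 10.8% of 32851 promoter windows of the same length. Cldn15 carried a reverse-strand TGACTCA at -214 to -208 and GGGCGG at -108 to -103. Cldn4 carried TGACTCA at -240 to -234 and at -158 to -152 and a reverse-strand GGGCGG at -44 to -39, and Cldn3 a reverse-strand GGGCGG at -236 to -231. TGACTCA occurred in 4.46% and GGGCGG in 32.7% of all windows. AGATAA and CAAAGTCCA, found in 9.99% and 0.384% of windows, were in none of the 4 windows shown. Cldn3 and Cldn4 are neighbours on chromosome 5, with 0 annotated genes between them.

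The deposited values are linear intensities, scaled by the submitters to a common level, and trimmed means were nearly equal on all arrays (200.2 at most). Array medians ran from 48.7 to 75.2 on set A, 85.7 to 110.2 on set B and 85.4 to 104.5 on set C. Intensities of different probe sets were not compared as measures of abundance. The marker sums given below add them, so the brightest probe sets weigh most in a sum. The 18S ribosomal control signal fell into 2 classes. It was low in jejunum pools 2 and 3 and ileum pools 1 and 3 on every array set (200.6 to 1541.2 on set A), and high in the other 8 pools (5772 to 20057.7 on set A). The 3′ to 5′ ratio of the actin controls also differed by segment, from 1.41 to 2.03 in duodenum, 1.2 to 1.57 in jejunum, 1.0 to 1.22 in ileum and 1.25 to 1.61 in colon arrays. The array of duodenum pool 3 on set C is titled duodenum but its source label names jejunum. It was kept as duodenum, and counting it as jejunum left both claudin calls between segments that rest on set C in place (Cldn15 167191_at, colon minus jejunum and colon minus small intestine). Segment markers followed the labels for Pdx1 and Akp3 (duodenum), Lct (jejunum), Fabp6, Slc10a2 and Fgf15 (ileum) and Car1, Hoxb13 and Aqp8 (colon), while Osr2, listed for jejunum, was highest in ileum (2583.7, against 714.8 in jejunum).

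Of the 15 claudin probe sets, 7 differed among the 4 segments (limma moderated F test, adjusted p below 0.05), against 8.82% of all probe sets. They belonged to 6 genes: Cldn2, Cldn3 (both probe sets), Cldn4, Cldn7, Cldn8 and Cldn15. Neither Cldn1 nor Cldn5 had a called probe set in any comparison. Jejunum minus duodenum gave 2 called probe sets (background 0.924%), ileum minus jejunum 3 (2.78%), and colon minus ileum 1 (3.28%). Ileum minus duodenum gave 3 (1.83%), colon minus duodenum 4 (5.99%) and colon minus jejunum 5 (9.19%). Setting colon against the averaged small intestine (colon minus small intestine) gave 4 (7.57%), of which 3 were lower in colon (3.13% of all probe sets) and 1 higher (4.44%). The 15 probe sets had a median log2 difference of 0.11 in jejunum minus duodenum, 0.07 in ileum minus jejunum, -0.19 in colon minus ileum and -0.19 in colon minus small intestine. Over all probe sets these medians were -0.06, 0.06, 0.02 and 0.04.

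**Figure D1:**
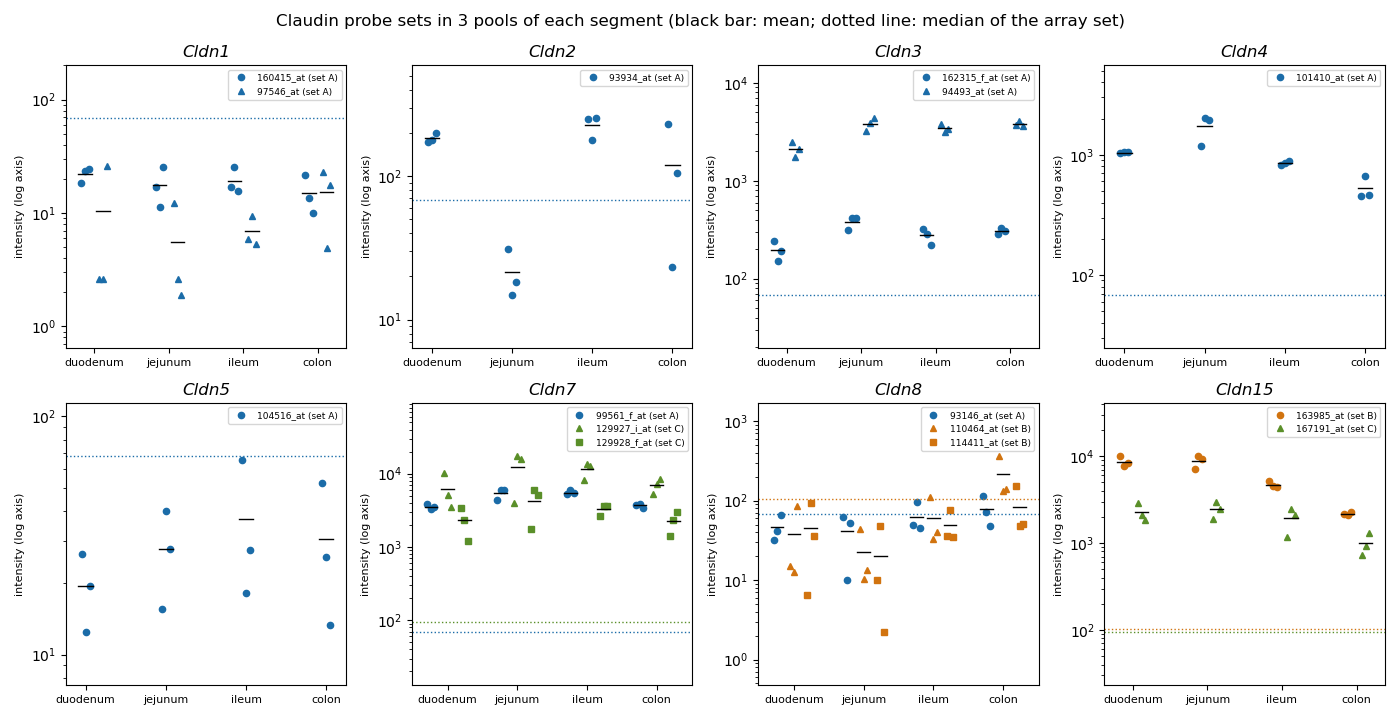
Intensity (log axis) of every claudin probe set in each pool, by segment from duodenum to colon. Each point is 1 pool, black bars are means of 3 pools, colours mark array sets, shapes mark probe sets and dotted lines the median of the array set. Cldn15 on set B steps down to between 2104.7 and 2255.9 in colon, Cldn2 dips to between 14.9 and 31.0 in jejunum, and Cldn1 and Cldn5 lie below the array median in all 12 pools.

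Cldn15, a cation-channel claudin of the intestine, was high in duodenum and jejunum, intermediate in ileum and lowest in colon. Probe set 163985_at on set B read 9925, 7641.7 and 8260.6 in duodenum pools 1 to 3, and 7026.4, 10099.2 and 9160.3 in jejunum. It read 5127.5, 4524.1 and 4444.5 in ileum, and 2183.6, 2104.7 and 2255.9 in colon. The colon pools lay below all 9 small-intestinal pools, and the ileum pools below all 6 duodenal and jejunal pools, while duodenum and jejunum overlapped. The mean was 2181.4 ± 75.6 in colon, against 4698.7 ± 373 in ileum (SD, n = 3 each). Colon minus ileum was -1.10 ± 0.178 on the log2(intensity + 16) scale (SE), 2.14-fold lower in colon, with an adjusted p of 0.00137. Ileum minus jejunum was -0.88 ± 0.178 (adjusted p = 0.0133) and ileum minus duodenum -0.87 (adjusted p = 0.016). Jejunum and duodenum did not differ beyond their spread (log2 difference 0.02 ± 0.178, adjusted p = 0.987). Without jejunum pools 2 or 3 or ileum pool 3, ileum minus jejunum was no longer called (adjusted p 0.0535 to 0.0799), nor was ileum minus duodenum without duodenum pools 1 or 3 or ileum pools 2 or 3 (adjusted p 0.0525 to 0.097). Both calls also ended in limma without the intensity trend (adjusted p = 0.0945 and 0.137), ileum minus jejunum with the compared arrays alone (0.134) and ileum minus duodenum with arrays centred on the median (0.0611). In the pools of high 18S signal alone, ileum minus jejunum was -0.63 (adjusted p = 0.509) and ileum minus duodenum -0.92 (adjusted p = 0.0971), and in the pools of low 18S signal ileum minus jejunum was -1.01 ± 0.219 (adjusted p = 0.0871). Against the whole small intestine, Cldn15 was 3.21-fold lower in colon (log2 difference -1.68 ± 0.146, adjusted p = 9.11e-07, lower in 3 of 3 pools).

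The other Cldn15 probe set, 167191_at on set C, had the same order of segments. It read 2925.1, 2120.0 and 1819.8 in duodenum, 1891.3, 2986.4 and 2496.5 in jejunum, 1172.3, 2474.6 and 2121.7 in ileum and 736.3, 935.2 and 1317.8 in colon. Colon pool 3 lay above ileum pool 1, so colon and small intestine overlapped by that pair. Colon minus small intestine was -1.14 ± 0.27 (2.2-fold lower in colon, adjusted p = 0.0182), and colon minus jejunum -1.30 (adjusted p = 0.023). Neither step within the small intestine passed the test on this probe set (ileum minus jejunum -0.40 ± 0.331, adjusted p = 0.712). The colon calls of 163985_at against ileum, duodenum, jejunum and the whole small intestine held under all 24 alternative settings, with colon minus small intestine between -1.8 and -1.33. The colon minus small intestine call of 167191_at ended without colon pool 1 (adjusted p = 0.135), without colon pool 2 (0.0888) or with adjustment within each array set (0.105). Its colon minus jejunum call ended without colon pools 1 or 2 or jejunum pools 2 or 3, and with 18S class fitted as a block (adjusted p 0.0769 to 0.108), with adjustment within each array set (0.144) and in the high-18S pools (0.337). Its colon minus duodenum difference (-1.20, adjusted p = 0.0506) was called without jejunum pool 1, ileum pools 1 or 2 or colon pool 3 (adjusted p 0.0296 to 0.0485), with the filter on low values (0.0284) and with quantile normalization (0.0196).

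Cldn2, which forms a channel for cations and water, was lower in jejunum than in the segments on either side of it. Probe set 93934_at read 174.0, 177.7 and 199.7 in duodenum, 31.0, 14.9 and 18.2 in jejunum, 252.1, 179.7 and 253.5 in ileum, and 232.9, 23.4 and 105.0 in colon. All 3 jejunum pools lay below the array-set median, as did 1 colon pool, and duodenum and ileum overlapped at about the same level. Jejunum minus duodenum was -2.44 ± 0.474 (5.43-fold lower in jejunum, adjusted p = 0.0213), and ileum minus jejunum was 2.72 ± 0.474 (6.58-fold higher in ileum, adjusted p = 0.00577). Ileum minus duodenum did not pass the test (0.28 ± 0.474, adjusted p = 0.905). The colon pools were spread from near the jejunal to near the ileal level, with a mean of 120.4 ± 106 (SD, n = 3). Colon minus ileum was -1.19 ± 0.474 (adjusted p = 0.279) and colon minus jejunum 1.53 ± 0.474 (adjusted p = 0.0595).

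The Cldn2 jejunum minus duodenum call ended with 18S class fitted as a block (-2.42, adjusted p = 0.117), in limma without the intensity trend (0.0521), and without any of duodenum pools 1, 2 or 3 or of jejunum pools 2 or 3 (adjusted p 0.0647 to 0.106). Within the pools of high 18S signal, where jejunum pool 1 is the lone jejunal pool, the difference was -2.09 (adjusted p = 0.555), and ileum minus jejunum was 2.06 (adjusted p = 0.553). Among the pools of low 18S signal, 2 from ileum and 2 from jejunum, ileum minus jejunum was 3.05 ± 0.318 (adjusted p = 0.0132). This low-18S comparison was added after seeing the data. Colon pools 1 and 2 each decide a colon value of Cldn2: without colon pool 1, colon minus ileum was called at -1.81 (adjusted p = 0.0337), and without colon pool 2, colon minus jejunum was called at 2.24 (adjusted p = 0.000756). Colon minus jejunum was also called with the pool number as a block (1.53, adjusted p = 0.0354), with a pseudocount of 1 (1.98, 0.0439), with the filter on low values (0.0388) and with adjustment within each array set (0.0337).

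**Figure D2:**
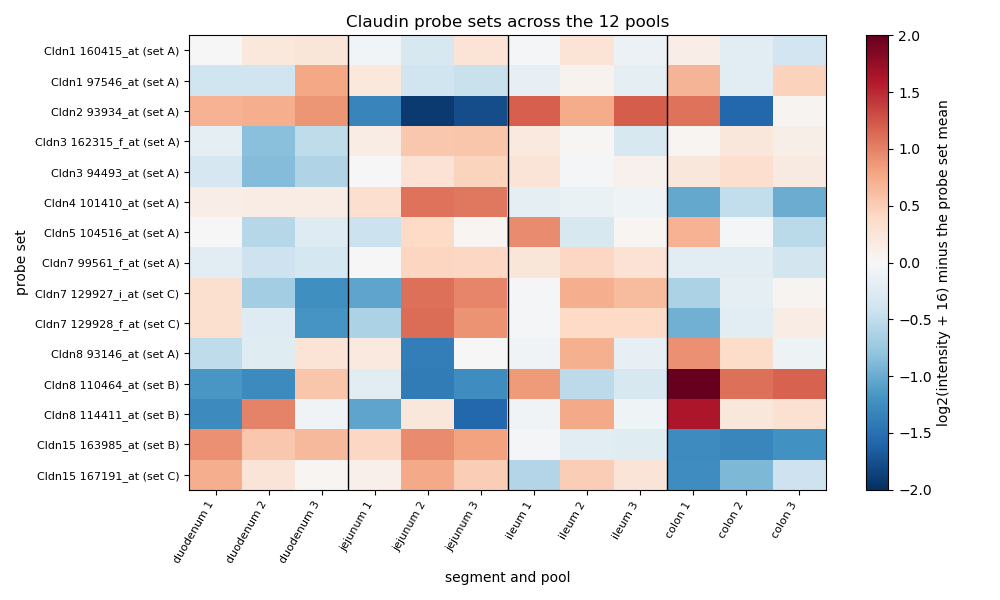
Each row is a claudin probe set and each column a pool, ordered by segment from duodenum to colon. Colour gives log2(intensity + 16) minus the mean of the probe set, red above and blue below, and vertical lines part the segments. Cldn2 is blue in the 3 jejunum pools and in colon pool 2 (23.4), Cldn15 and Cldn4 are blue in the colon pools, and Cldn8 110464_at is reddest in colon pool 1 (366.4).

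Cldn4, a sealing claudin that also serves as a receptor for Clostridium perfringens enterotoxin, was highest in jejunum and lowest in colon. Probe set 101410_at read 1029.4, 1045.7 and 1046.6 in duodenum, 1185.9, 2009.9 and 1960.0 in jejunum, 821.5, 857.4 and 887.4 in ileum, and 452.1, 664.5 and 462.0 in colon. No segment overlapped another, although jejunum pool 1 lay nearer to the duodenal than to the other jejunal pools. Its colon minus small intestine difference was -1.12 ± 0.163 (2.17-fold lower in colon, adjusted p = 0.000305, lower in 3 of 3 pools). Colon minus jejunum was -1.66 ± 0.199 (3.16-fold lower, adjusted p = 4.7e-05) and colon minus duodenum -0.98 ± 0.199 (1.98-fold lower, adjusted p = 0.00624). These 3 calls held under all 24 alternative settings.

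Ileum minus jejunum of Cldn4 was -0.95 ± 0.199 (1.94-fold lower in ileum, adjusted p = 0.0181). The call ended without jejunum pool 2 (adjusted p = 0.0752), jejunum pool 3 (0.0871), ileum pool 1 (0.0693) or ileum pool 3 (0.066), in limma without the intensity trend (0.0609) and with the compared arrays alone (0.0844). In the high-18S pools the difference was -0.46 (adjusted p = 0.679), and among the low-18S pools -1.20 ± 0.168 (adjusted p = 0.0322). The neighbours in the order that did not differ by the test were jejunum and duodenum (jejunum minus duodenum 0.68, adjusted p = 0.161), ileum and duodenum (ileum minus duodenum -0.28, adjusted p = 0.689) and colon and ileum (colon minus ileum -0.71, adjusted p = 0.0771). Without jejunum pool 1, jejunum minus duodenum was called at 0.92 (adjusted p = 0.0105) and colon minus ileum at -0.71 (adjusted p = 0.0155). Colon minus ileum was also called without colon pool 2 (-0.88, adjusted p = 0.0397), with quantile normalization and with adjustment within each array set.

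Cldn3, a sealing claudin and the genomic neighbour of Cldn4, was lower in duodenum than in the segments after it. Probe set 94493_at read 2519.8, 1742.3 and 2102.4 in duodenum, 3229.9, 3894.2 and 4358.1 in jejunum, 3844.6, 3139.3 and 3401.4 in ileum, and 3756.7, 4049.0 and 3610.7 in colon. The 3 duodenal pools lay below all the others, and jejunum, ileum and colon overlapped. Jejunum minus duodenum was 0.85 ± 0.168 (1.8-fold higher in jejunum, adjusted p = 0.0236), ileum minus duodenum 0.71 ± 0.168 (adjusted p = 0.0427), and colon minus duodenum 0.85 ± 0.168 (1.81-fold higher in colon, adjusted p = 0.00506). Colon minus ileum did not pass the test (0.14 ± 0.168, adjusted p = 0.861). Colon minus duodenum lost its call when arrays were centred on their median (0.70, adjusted p = 0.111). Jejunum minus duodenum lost it with 18S class fitted as a block (0.67, adjusted p = 0.176), in the high-18S pools (0.62, 0.513), with median centring, without the intensity trend or with the compared arrays alone (adjusted p 0.0635 to 0.137), and without duodenum pools 2 or 3 or jejunum pools 2 or 3 (adjusted p 0.0848 to 0.137). Ileum minus duodenum lost it with the pool number as a block (0.71, adjusted p = 0.0708), with 18S class fitted as a block (0.53, 0.226), in the high-18S pools (0.58, 0.297), under the same 3 settings (adjusted p 0.0791 to 0.316), and without any 1 pool other than duodenum pool 1, jejunum pool 1 and jejunum pool 3 (adjusted p 0.0538 to 0.209).

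The other Cldn3 probe set, 162315_f_at, read 241.7, 149.9 and 191.7 in duodenum, 312.3, 415.0 and 419.1 in jejunum, 324.4, 285.1 and 221.6 in ileum, and 288.6, 331.0 and 306.7 in colon. Its suffix marks probes shared within a gene family, so its signal may hold other claudin transcripts. It differed among segments by the F test (adjusted p = 0.0446), a call that ended under 13 of the 23 alternative settings with an F test. The mean was again lowest in duodenum, but no pairwise difference was called in the main fit. Jejunum minus duodenum was 0.93 ± 0.208 (adjusted p = 0.0502, and called without duodenum pool 1 or jejunum pool 1). Colon minus duodenum was 0.65 (adjusted p = 0.0919), and ileum minus duodenum, where pools overlapped, 0.49 (adjusted p = 0.383).

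The duodenal pools also held exocrine pancreas RNA. Summed intensity of 6 exocrine pancreas markers ran from 89232.4 to 90133 in duodenum and reached at most 1703.4 in any other pool. Of 6 markers of the stomach and of Brunner's glands, which belong to the duodenum itself, 3 (Tff2, Gkn2 and Gkn3) were called lower in jejunum than in duodenum (0.858% of all genes). Among those not called, Gkn1 differed by -0.06 and Cldn18 by -0.91. The summed intensity of these 6 ran from 49600.1 to 67267.9 in duodenum and reached at most 658.7 elsewhere. Summed epithelial markers (7 genes) ran from 31987.6 to 35472 in duodenum, 35613.8 to 39569.2 in jejunum, 43087.3 to 50227.8 in ileum and 35364.9 to 43146.4 in colon. The part of these tissues in the lower duodenal Cldn3 was not tested. In whole-wall RNA, fewer cells of a type and less RNA per cell cannot be told apart.

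Cldn7, which lies at the junction and along the lateral membrane of gut epithelium, had its highest means in jejunum and ileum on all 3 probe sets. Probe set 99561_f_at read 3818.1, 3345.7 and 3480.9 in duodenum, 4438.1, 5979.7 and 5942.1 in jejunum, 5234.8, 5916.1 and 5445.2 in ileum, and 3791.1, 3859.7 and 3448.3 in colon. Like 129928_f_at it carries the suffix of probes shared within a gene family. The jejunal and ileal pools all lay above the duodenal and colonic pools. Ileum minus duodenum was 0.64 ± 0.154 (1.56-fold higher in ileum, adjusted p = 0.0489) and colon minus jejunum -0.55 ± 0.154 (1.46-fold lower in colon, adjusted p = 0.0362). Both ended with 18S class fitted as a block (0.55, adjusted p = 0.19, and -0.45, adjusted p = 0.162), with the pool number as a block (adjusted p = 0.0789 and 0.0542), and without any of the colon pools (adjusted p 0.0714 to 0.142). Both also ended without the intensity trend, with the compared arrays alone and in the high-18S pools (adjusted p 0.0568 to 0.567), ileum minus duodenum with median centring (0.351) and colon minus jejunum with quantile normalization (-0.28, 0.255). Ileum minus duodenum also ended without any 1 of the duodenal or ileal pools and without jejunum pool 2. Colon minus jejunum ended without duodenum pools 2 or 3, jejunum pools 2 or 3 or ileum pool 3. In the main fit, jejunum minus duodenum (0.61, adjusted p = 0.0891), colon minus ileum (-0.58, adjusted p = 0.0567) and colon minus small intestine (-0.35, adjusted p = 0.117) were not called. Without jejunum pool 1, jejunum minus duodenum (0.75, adjusted p = 0.0127), colon minus ileum (-0.58, adjusted p = 0.0181) and colon minus small intestine (-0.40, adjusted p = 0.028) were called.

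The Cldn7 probe sets on set C spread widely between pools. Probe set 129927_i_at read 10241.6, 5055.9 and 3487.7 in duodenum, 3919.9, 17545.6 and 16111.4 in jejunum, 8099.3, 13557.8 and 12730.6 in ileum, and 5303.2, 7229.7 and 8505.7 in colon. Probe set 129928_f_at ran from 1197.9 to 3410 in duodenum, 1765.6 to 5962.8 in jejunum, 2650.2 to 3610.1 in ileum and 1405.8 to 3030.7 in colon. Neither probe set passed the F test (adjusted p = 0.571 and 0.577). Jejunum pool 1, the jejunal pool with high 18S signal, was the lowest of the 3 jejunal pools on all 8 probe sets of Cldn3, Cldn4, Cldn7 and Cldn15, and the highest for Cldn2. The part of the 18S class in this spread was not tested.

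Cldn8, a sealing claudin best known from the distal nephron and colon, was called higher in colon on 1 of its 3 probe sets. Probe set 110464_at on set B read 15.0, 12.7 and 86.1 in duodenum, 44.4, 10.3 and 13.4 in jejunum, 110.0, 32.6 and 39.7 in ileum, and 366.4, 132.6 and 141.4 in colon. The colon pools lay above all others, and colon pool 1 stood well above the other 2. This probe set lay below the array median in 8 of 12 pools, namely all 3 duodenal, all 3 jejunal and 2 ileal pools. The mean was 213.5 ± 133 in colon, against 60.8 ± 42.8 in ileum, 22.7 ± 18.9 in jejunum and 37.9 ± 41.7 in duodenum (SD, n = 3 each). Colon minus small intestine was 2.10 ± 0.485 (4.29-fold higher in colon, adjusted p = 0.0115). That call ended without colon pool 1 (1.66, adjusted p = 0.111) and in the pools of high 18S signal (2.03, adjusted p = 0.0636). Colon minus ileum did not pass the test (1.57 ± 0.594, adjusted p = 0.236), nor did it under any alternative setting. Colon minus jejunum was 2.53 (adjusted p = 0.0115, and 0.0688 with 18S class fitted as a block) and colon minus duodenum 2.21 (adjusted p = 0.0367). Without colon pool 1 these were 2.09 (adjusted p = 0.0655) and 1.77 (adjusted p = 0.171), and colon minus duodenum also ended without colon pools 2 or 3 or duodenum pools 1 or 2, with a pseudocount of 1 (0.0521), with the compared arrays alone (0.0564) and in the high-18S pools (0.0626). Colon minus jejunum also ended without jejunum pool 2 (adjusted p = 0.053) or pool 3 (0.0534) and in the high-18S pools (1.78, 0.371), and the F test call of this probe set ended under 12 of the 23 alternative settings with an F test.

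The other Cldn8 probe sets lay below the array median in 9 of 12 pools (93146_at) and 11 of 12 pools (114411_at). Probe set 93146_at read 31.7, 41.7 and 65.9 in duodenum, 62.0, 10.1 and 52.0 in jejunum, 48.9, 95.0 and 44.9 in ileum, and 112.8, 72.0 and 47.4 in colon. Probe set 114411_at read 6.5, 92.1 and 35.8 in duodenum, 10.0, 47.3 and 2.2 in jejunum, 35.6, 76.1 and 35.0 in ileum, and 151.3, 47.4 and 51.2 in colon. Both had their highest mean in colon, and in both colon overlapped the small intestine. The difference was 0.53 ± 0.359 on 93146_at (adjusted p = 0.516) and 0.96 ± 0.498 on 114411_at (adjusted p = 0.34) for colon minus small intestine. The 3 Cldn8 probe sets thus disagreed on the call while sharing the sign.

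Cldn1, the claudin whose loss abolishes the water barrier of mouse skin, was dim in every segment. Probe set 160415_at ran from 18.2 to 24.3 in duodenum, 11.2 to 25.4 in jejunum, 15.5 to 25.3 in ileum and 10.1 to 21.5 in colon. Probe set 97546_at ran from 2.6 to 25.9 in duodenum, 1.9 to 12.3 in jejunum, 5.3 to 9.5 in ileum and 4.9 to 23.2 in colon. Both lay below the array median in all 12 pools, segments overlapped throughout, and the F test gave adjusted p values of 0.885 and 0.743. Colon minus small intestine was -0.20 ± 0.21 on 160415_at and 0.41 ± 0.259 on 97546_at, so the probe sets differed in sign.

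Cldn5, the endothelial claudin, read 26.4, 12.4 and 19.4 in duodenum, 15.6, 40.0 and 27.7 in jejunum, 65.4, 18.1 and 27.6 in ileum, and 52.6, 25.6 and 13.3 in colon on 104516_at. It too lay below the array median in all 12 pools, and all segments overlapped (F test adjusted p = 0.864). Its difference between colon and small intestine was 0.06 ± 0.322. All 10 endothelial markers listed beside Cldn5, among them Pecam1, Cdh5 and Vwf, were measured. Limma called 0 of them in any comparison (0 at an unadjusted p below 0.05 in colon minus small intestine, and 2 in ileum minus duodenum). Their summed intensity ran from 931.1 to 1063.7 in duodenum, 951.4 to 1201.3 in jejunum, 1015 to 1158.7 in ileum and 828.3 to 1005.5 in colon.

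**Figure D3:**
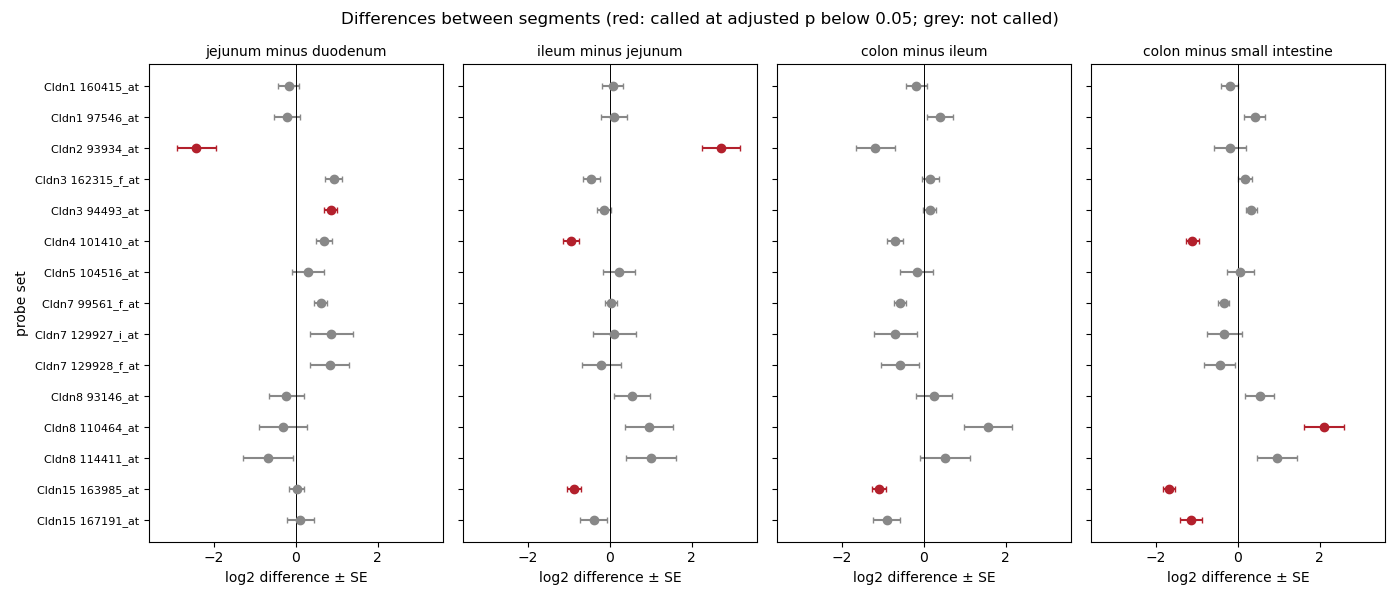
Log2 difference in intensity + 16 between segments for all 15 claudin probe sets, with SE bars, in 4 comparisons. Red points passed the adjusted p of 0.05 and grey ones did not. Jejunum minus duodenum has 2 red points, ileum minus jejunum 3, colon minus ileum 1 and colon minus small intestine 4, with Cldn15 (-1.68) and Cldn4 (-1.12) to the left and Cldn8 (2.10) to the right in the last.

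The colon pools held more smooth muscle RNA. Summed intensity of 8 smooth muscle markers ran from 5698.2 to 6918.9 in duodenum, 5774.4 to 8984.4 in jejunum, 10140 to 12808.8 in ileum and 27806.1 to 31834.3 in colon, and all 8 were called higher in colon than in small intestine (6.92% of all genes, at 1 probe set a gene). The epithelial sum of the colon pools, given above, overlapped that of each other segment. It rests mostly on Krt8, Krt19 and Krt20, which averaged 12799.9, 11771.6 and 7523.9 in colon, while Cdh1 averaged 180.6. Of the 7 epithelial markers, only Vil1, the brush-border actin bundler, was called lower in colon (log2 difference -1.37, adjusted p = 1.67e-06, against 4.96% of all genes). Epcam averaged 2120.4 in colon, against 1990.5 in ileum, 1495.2 in jejunum and 1769.7 in duodenum. The part of smooth muscle RNA in the lower colonic Cldn15 and Cldn4 was not tested.

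**Figure D4:**
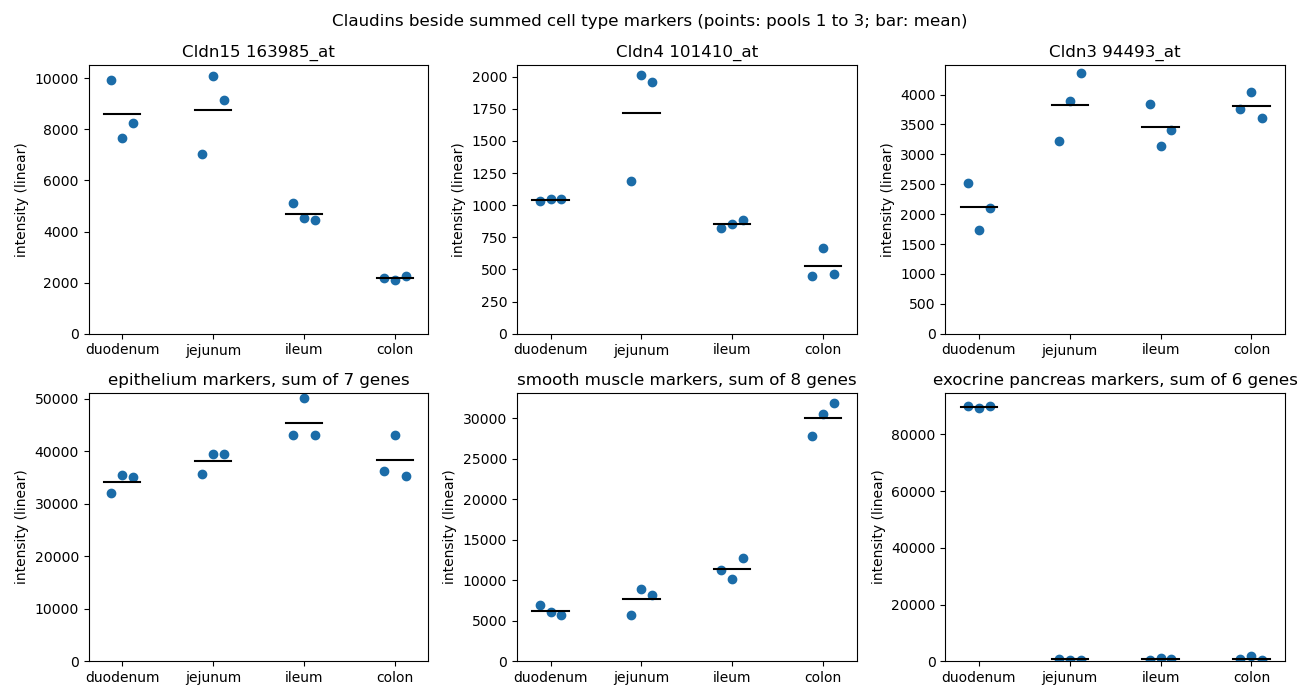
Linear intensity in each pool, by segment from duodenum to colon, of Cldn15, Cldn4 and Cldn3 (top) and of summed epithelial, smooth muscle and exocrine pancreas markers (bottom). Points are pools and bars their means. Smooth muscle markers reach 31834.3 in colon and pancreas markers stand at about the same high level in the 3 duodenal pools, while the epithelial sum stays between 31987.6 and 50227.8.

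The claudins are anchored by scaffold proteins and share the junction with other membrane proteins. Of 25 listed tight junction partners 24 were measured, and 5 were called in colon minus small intestine against 11.9% of all genes at 1 probe set a gene. Of these 4 were higher in colon, against 6.92% of all genes, and 1 lower, against 4.96%. The list median was 0.20, against 0.05 over all genes. Lsr, the tricellular junction protein angulin-1, was lower in colon: it averaged 792.5 ± 116 in colon, against 3054.9 ± 42.5 in ileum, 2051.6 ± 135 in jejunum and 1703.2 ± 75.1 in duodenum (SD, n = 3 each). Its colon minus small intestine difference was -1.47 ± 0.114 (adjusted p = 4.31e-07), and colon minus ileum was -1.94 (adjusted p = 3.52e-07). Ileum minus jejunum of Lsr was 0.57 (adjusted p = 0.0396), so Lsr peaked in ileum, where Cldn15 was already lower than in jejunum.

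The 4 partners called higher in colon were Tjp1, Cgnl1, Mpdz and Ybx3. Tjp1, the scaffold ZO-1 that binds claudin tails, averaged 306.9 ± 47.3 in colon, against 274.1 ± 78.1 in ileum, 118.1 ± 36.1 in jejunum and 178.7 ± 11.4 in duodenum, with colon minus small intestine at 0.73 (adjusted p = 0.0368). Cgnl1, the junctional linker paracingulin, differed by 1.50 (adjusted p = 0.0407), the scaffold Mpdz by 0.97 (adjusted p = 0.0305) and Ybx3, the ZO-1-associated factor ZONAB, by 0.69 (adjusted p = 0.0313). Mpdz was dim, at 51.6 ± 10.3 in colon and between 15.8 and 23.2 on average in the other segments.

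Ileum minus jejunum gave 3 called partners, all higher in ileum (4.48% of all genes were called, and 2.46% called higher): Tjp1 (1.11, adjusted p = 0.026), the scaffold Magi3 (1.36, adjusted p = 0.0445) and Lsr. Magi3 averaged 436.1 ± 150 in ileum and 168 ± 87.8 in jejunum. Colon minus ileum gave Lsr alone of 24 (5.22% of all genes). Jejunum minus duodenum gave 0 by limma, with 2 at an unadjusted p below 0.05 (1.5% of all genes called). In colon minus jejunum 7 partners were called (14.4% of all genes): Tjp1, Cgnl1, Magi3, Mpdz and Ybx3 higher in colon, Lsr lower, and the polarity protein Crb3 lower (-0.48, adjusted p = 0.0386). Cxadr, the coxsackievirus receptor of the junction, was called in colon minus duodenum (0.88, adjusted p = 0.0306, where 9.15% of all genes were called). Occludin (Ocln), the best-known partner, did not pass the test in any comparison.

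**Figure D5:**
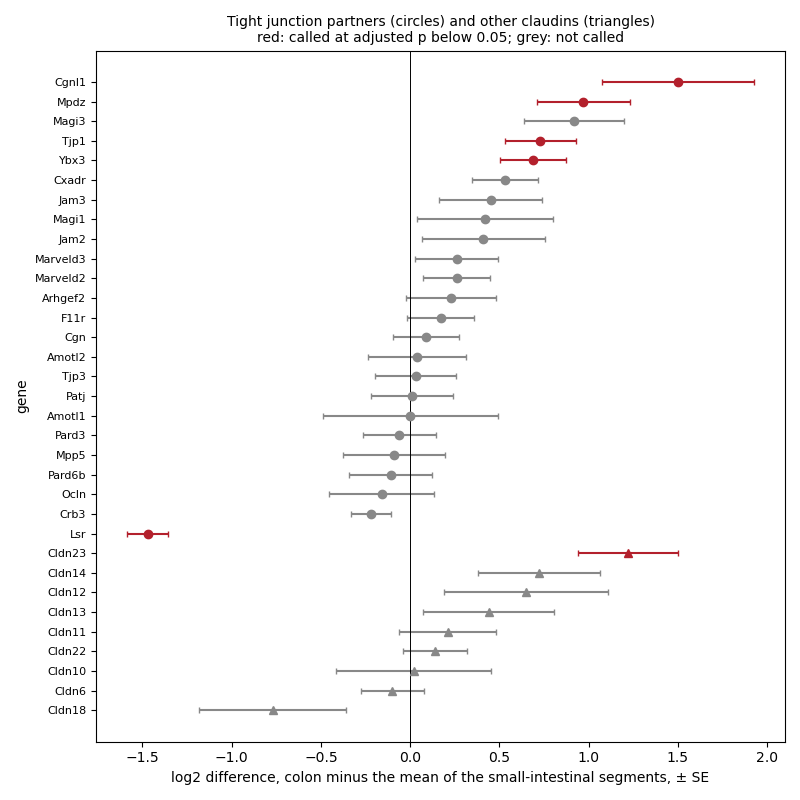
Log2 difference between colon and the averaged small intestine, with SE bars, for 24 tight junction partners (circles) and 9 other claudins (triangles). Red marks an adjusted p below 0.05 and grey the rest. Lsr (-1.47) is the lone red circle on the left, with Cgnl1 (1.50), Mpdz (0.97), Tjp1 (0.73) and Ybx3 (0.69) on the right and Cldn23 (1.22) the lone red triangle.

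Among 14 further claudins, 9 were measured and 1 was called in colon minus small intestine, Cldn23, a share near the 11.9% of all genes. It averaged 1393.4 ± 239 in colon, against 826.5 ± 277 in ileum, 506.5 ± 228 in jejunum and 554 ± 218 in duodenum (SD, n = 3 each). Colon minus small intestine was 1.22 ± 0.279 (adjusted p = 0.0108), colon minus jejunum 1.51 (adjusted p = 0.00896) and colon minus duodenum 1.37 (adjusted p = 0.0239). Colon minus ileum did not pass the test (0.79 ± 0.341, adjusted p = 0.339). In colon minus small intestine the sign of Cldn23 is that of Cldn8, and the opposite of that of Cldn15 and Cldn4. The other 8 measured genes of this list were called in no comparison.

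Across the 12 pools, Cldn4 and Cldn15 had the most similar profiles among the 8 claudins, with a Pearson r of 0.88 between their representative probe sets. The 27 other pairs lay between -0.6 and 0.57. These coefficients describe 12 pools in 4 segments and share the segment means, so no p-value is given. Among 10977 other genes, Cldn15 was closest to 1810055G02Rik (r = 0.991), Smpdl3b (0.989) and Arg2 (0.988). Arg2, the mitochondrial arginase, averaged 7635.8 in duodenum, 6771.5 in jejunum, 1822.2 in ileum and 172.8 in colon. Cldn4 was closest to AU040320 (0.979), Slc37a4 (0.975) and Tmem120a (0.972). Slc37a4, the glucose-6-phosphate carrier of the endoplasmic reticulum, averaged 769.1, 1618, 386.8 and 192 in duodenum, jejunum, ileum and colon.

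Cldn3 was closest to Ctdsp2 (0.967), Pltp (0.95) and Cog2 (0.949), all 3 with their lowest mean in duodenum. Cldn7 was closest to Atg9a (0.965), Camsap3 (0.954) and Cd82 (0.935), all higher on average in jejunum and ileum than in duodenum and colon. Camsap3 is a microtubule minus-end binder of epithelial cells. Cldn2 was closest to Ehd4 (0.905), Ago2 (0.882) and Slc38a1 (0.881), which all had their lowest mean in jejunum. For the dim representative probe sets, the genes closest to Cldn8 were Srr (0.931), Plk2 (0.922) and Trpv4 (0.911). Closest to Cldn5 were Myo1g (0.86), Vwf (0.848) and Ifi203 (0.847), and to Cldn1 Habp4 (0.898), Zfp783 (0.869) and Pbld1 (0.866). For Cldn5 and Cldn1 these are the highest of 10978 genes. On such dim values the ranking cannot tell a shared cell type from noise.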

How the data were processed

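RNA of 12 pools (4 intestinal segments, 3 pools each, 10 mice a pool) was measured on 3 Affymetrix array sets, 36 arrays in all. The deposited tables hold linear intensities, 1 value per probe set and array, which the authors had already scaled: the values show a trimmed mean near 200.1 on every array after removing 2% at each end. The software that made them is not given in the sources used here, and neither detection calls nor probe-level data were used, so the depth of a value is judged only by its height against the array median and by the number of pools. Of the probe sets, 29131 have 1 gene symbol in the platform annotation, 724 have several and 6846 have none. Of the single symbols, 29044 could be matched to a gene in the RefSeq table. On each array set 66 control probe sets were left out.

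Each array set was fitted in limma 3.58.1 (R 4.3.3) on log2(intensity + 16) with all 12 arrays, moderated with an intensity trend and no covariates. Fold changes are on that scale, which understates those of dim probe sets. P-values are two-sided and were adjusted by the Benjamini-Hochberg method over all 36701 probe sets of a comparison, and a call means an adjusted p below 0.05. No filter on low values was used. In an alternative with such a filter, 11 of the 15 claudin probe sets were kept. The fit was also run on simulated data with independent noise and a shift in colon alone. Those data held no 18S classes, so the run cannot speak to differences within the small intestine. Alternatives tried were other pseudocounts, the filter, other scalings, no trend, fewer arrays in the fit, adjustment within a set, the mislabelled array, pool number or 18S class as a block, the high-18S pools alone and each pool left out. The low-18S pools alone were added later.

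The members and gene lists were chosen with earlier results of these data known. Where a gene had several probe sets, lists used 1 representative (set A, else B, else C, and the brightest). Named are all claudin probe sets, the 3 genes most correlated with each representative, the called members of the partner and other-claudin lists, and up to 4 called members of every other list with the smallest adjusted p in colon minus small intestine. The lists are tight junction partners, other claudins, adherens junction genes, a list of proteases, inhibitors and kinases, and regional transcription factors. Markers of epithelium, endothelium, smooth muscle, lymphocytes, enteric neurons and glia, mesothelium, exocrine pancreas, stomach and Brunner's glands and each segment are given as counts and sums. Promoter sequences are from RefSeq on GRCm38.p6. Tables and figures were made with Python 3.11.15, pandas 2.3.3 and matplotlib 3.10.9.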

Additional observations from a re-analysis of the deposited data

How the results depend on the processing

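Of the 22 claudin calls between segments, 7 held under every alternative run, namely those of Cldn15 163985_at in colon against ileum, duodenum, jejunum and the small intestine and of Cldn4 in colon against duodenum, jejunum and the small intestine, and no called value changed sign. The 7 probe sets called among segments became 4 with arrays centred on the median, 4 with 18S class fitted as a block, 3 in the high-18S pools and 4 to 8 when 1 pool was left out. The 2 of jejunum minus duodenum became 4 with the filter on low values, 4 with adjustment within each array set, 1 with median centring, 1 with the arrays of the compared segments alone, and 0 in limma without the trend, with the 18S block or in the high-18S pools (5, 4 and 3 at an unadjusted p below 0.05), and 0 to 5 with 1 pool left out. The 3 of ileum minus jejunum became 1 without the trend, 1 with the compared arrays alone and 0 in the high-18S pools (2 at an unadjusted p below 0.05), and 1 to 3 with 1 pool left out. The 1 of colon minus ileum became 2 with a pseudocount of 64, with the filter, with quantile normalization and with the compared arrays alone, and 3 with adjustment within each set, and 1 to 3 with 1 pool left out. The 4 of colon minus small intestine ranged from 2 to 5 with 1 pool left out and stayed within 1.5 times of 4 under the other alternatives. The high-18S fit holds fewer pools, and several of its differences also changed in size. Why calls ended there or under the other settings was not tested.

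With the pool number as a replicate block, 19 of the 22 calls were kept, 1 difference not called otherwise was called (Cldn2 in colon minus jejunum, 1.53, adjusted p = 0.0354) and 6 probe sets, against 7, differed among segments. Pools of the same number did not deviate together: the correlation of their deviations from the segment means ran from -0.356 to 0.361, with medians of -0.0195, 0.027 and 0.0055 on sets A, B and C, so the numbers were not taken to pair the samples.

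Cldn1, Cldn5 and 2 Cldn8 probe sets lay below the array median in at least 9 of 12 pools, and Cldn8 110464_at in 8. At such values the pseudocount understates fold changes.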

Other observations

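Genes that act beside the claudins were also read by segment. Of 16 adherens junction and adhesion genes 15 were measured, and 6 were called in colon minus small intestine, 3 higher and 3 lower (11.9% of all genes were called). Cdh17, the intestinal liver-intestine cadherin, averaged 4725.6 ± 551 in colon, against 9873.3 ± 1150 in ileum, 8938.2 ± 3870 in jejunum and 10730.6 ± 988 in duodenum (SD, n = 3 each), with a log2 difference of -1.03 (adjusted p = 0.00269). The desmosomal genes Dsg2 (0.71, adjusted p = 0.00186) and Dsc2 (1.15, adjusted p = 0.00829) were higher in colon, and Nectin2 was lower (-0.53, adjusted p = 0.0122). In colon minus ileum, Dsg2 (0.14, adjusted p = 0.847), Dsc2 (0.48, adjusted p = 0.618) and Nectin2 (-0.44, adjusted p = 0.164) did not pass the test. Dsg2 was already higher in ileum than in jejunum (0.81, adjusted p = 0.0104).

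Of 11 listed proteases, inhibitors and kinases 10 were measured, and 4 were called in colon minus small intestine, 3 higher and 1 lower (6.92% and 4.96% of all genes). Mylk, the myosin light chain kinase that is also a smooth muscle gene, was higher in colon (1.00, adjusted p = 2.74e-05), and so were Wnk1 (1.13, adjusted p = 0.00735) and Wnk4 (2.54, adjusted p = 0.0106). Spint1, an inhibitor of membrane-bound serine proteases, was lower (-0.83, adjusted p = 0.0292). In colon minus ileum, Wnk1 (0.46, adjusted p = 0.62) and Spint1 (-0.83, adjusted p = 0.149) did not pass the test. Wnk4 averaged 487 ± 204 in colon, against 33 ± 6.96 in ileum, 182 ± 194 in jejunum and 83.1 ± 89.3 in duodenum (SD, n = 3 each). Its highest jejunal pool (405.8) lay above the lowest colonic pool (297), and colon minus jejunum did not pass the test (1.71, adjusted p = 0.164).

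Of 12 regional transcription factors 9 were measured and 3 were called in colon minus small intestine (11.9% of all genes): Cdx1 (1.18, adjusted p = 2.18e-05) and Klf4 (1.47, adjusted p = 1.76e-05) higher, and Gata4 lower (-1.53, adjusted p = 0.00294). Gata4 averaged 61 ± 43.8 in colon, against 144.6 ± 55.6 in ileum, 205 ± 65.7 in jejunum and 231.4 ± 19.5 in duodenum. Its colon minus ileum difference did not pass the test (-1.15, adjusted p = 0.117). Among markers of other cell types, 1 of 6 lymphocyte genes was called lower (4.96% of all genes) and 1 of 6 enteric neuron and glia genes higher (6.92%) in colon than in small intestine, and 0 of 4 mesothelial genes was called by limma (0 at an unadjusted p below 0.05).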
